A study of Homo sapiens with 12 samples.

Results

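CD99-transfected and parental Saos-2 osteosarcoma cells were compared over all days of culture by the miRNAs detected in each. The comparison used all 12 arrays of the series, 6 of Sa/CD99 and 6 of Saos-2, and the 851 human miRNA names of the deposited value table. A miRNA was taken as detected on an array when its log2 value lay above the lowest value of that column, which is the value given to every undetected miRNA. By this rule 100 miRNAs were detected on all 12 arrays, 589 on none and 162 on 1 to 11. Exactly 1 miRNA, miR-551b, was present on all 6 arrays of 1 cell type, Saos-2, and on 0 of 6 of the other. A looser form of the rule, at least 1 array of each day in 1 cell type and 0 of 6 in the other, held for 10 miRNAs.

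Saos-2 is a human osteosarcoma line that can be driven towards bone-forming cells. Sa/CD99 are Saos-2 cells stably transfected with CD99, a membrane glycoprotein, by calcium-phosphate and selected in neomycin. They comprise the clones wt22 and wt36, each a single line sampled on every day. RNA of both cell types was taken before (day 0) and 7 and 14 days after the change to osteoblast differentiation medium, with 2 arrays per cell type and day. Parental arrays are numbered 1 and 2, with no statement in the labels of whether a number stands for 1 culture followed over time. No empty-vector transfectant is among these samples, so CD99 expression, transfection, selection and cloning cannot be told apart.

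A mature miRNA is a short RNA cut from 1 arm of a hairpin precursor. It pairs with messenger RNAs mainly through its seed, bases 2 to 8, and lowers their translation and stability, so miRNAs with a common seed form a family with overlapping targets. Several members are often transcribed together as a cluster, and of each hairpin usually 1 arm, the guide, accumulates while the other, marked here with a star, is degraded. In osteoblasts miRNAs restrain or release regulators of bone formation such as RUNX2.

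The sequences of miR-551b, of some of the other miRNAs detected in parental cells alone and of their relatives by seed are given 5′ to 3′ from RefSeq (GRCh38.p14) with the seed in capitals. Of 69 array names looked up, 62 had a mature sequence there. miR-551b and its only RefSeq relative by seed, miR-551a, come first.

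hsa-miR-551b-3p: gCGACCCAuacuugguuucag
hsa-miR-551a: gCGACCCAcucuugguuucca

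The miR-15/16 family holds a member found only on arrays of Saos-2 number 2 (miR-15a) beside members on every array (miR-15b and miR-16).

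hsa-miR-15a-5p: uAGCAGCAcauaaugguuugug
hsa-miR-15b-5p: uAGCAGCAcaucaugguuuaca
hsa-miR-16-5p: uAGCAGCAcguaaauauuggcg
hsa-miR-195-5p: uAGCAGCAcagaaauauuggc

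The same contrast within a family is shown for miR-30e, found only on arrays of Saos-2 number 2, beside miR-30a and miR-30c, found everywhere. miR-18a is set beside its near copy miR-18b.

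hsa-miR-30e-5p: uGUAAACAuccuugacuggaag
hsa-miR-30a-5p: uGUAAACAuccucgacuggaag
hsa-miR-30c-5p: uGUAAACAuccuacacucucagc
hsa-miR-18a-5p: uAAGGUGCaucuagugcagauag
hsa-miR-18b-5p: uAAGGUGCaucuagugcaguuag

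The last sequence is that of let-7g, the abundant miRNA with the most closely bounded difference between the cell types.

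hsa-let-7g-5p: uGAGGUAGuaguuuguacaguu

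Of the relatives printed, miR-551a lies at chr1:3560710-3560730 on the minus strand, miR-15b at chr3:160404607-160404628 on the plus strand and miR-195 at chr17:7017667-7017687 on the minus strand. miR-30a lies at chr6:71403595-71403616, miR-18b at chrX:134170084-134170106 and let-7g at chr3:52268336-52268357, each on the minus strand, and miR-16 and miR-30c are each encoded at 2 loci.

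The labels of the arrays need care. Every table column had exactly 1 matching scanner file in detected and undetected miRNAs, over all 847 shared names, and in 12 of 12 cases that file was deposited under a different sample. All results below take the labels of the value table, and values under the labels of the scanner files are given beside the leading ones. The number of miRNAs detected per array had a median of 175 in Sa/CD99 and 177.5 in Saos-2, with Sa/CD99 means 13 and 18.5 below those of Saos-2 on days 0 and 7 and 1.5 above it on day 14. The mean difference was -10 miRNAs per array, which did not pass an exact permutation test within days (two-sided p = 0.481, n = 6 and 6). It ranged from -18.9 to -0.467 with 1 array left out and turned to 7.33 against Saos-2 number 1 only. By the labels of the table, total scanner signal was lowest on day 0, at 8534 to 11305 units. By those of the scanner files, the day 0 arrays had 9075, 25330, 40549 and 57974 units. The directions that the study reports for miR-34a and miR-26b are those found under the labels of the table. Which labels are right was not tested. Saos-2 number 2 had more miRNAs detected than number 1 on every day, by 21, 71 and 12 miRNAs. On day 0 all arrays were on slide 1 and on day 14 all were on slide 2, whereas on day 7 Sa/CD99 was on slide 2 and Saos-2 on slide 1. A fit with slide as a covariate beside day therefore takes the cell type difference from days 0 and 14 only. Of 16 mesenchymal marker names, 11 were on all 12 arrays and 3 (miR-143, miR-199b-5p and miR-218) on none. None of the 7 epithelial, 8 pluripotent or germ line, 6 placental and 1 liver names was detected on any array. Of all 851 names, 100 were on all 12 arrays and 589 on none. Of 7 blood names miR-486-5p alone was detected, on all 12 arrays, of 6 muscle names miR-133b, on 3, and of 6 neural names miR-128 and miR-9, on 6 and 1.

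**Figure D1:**
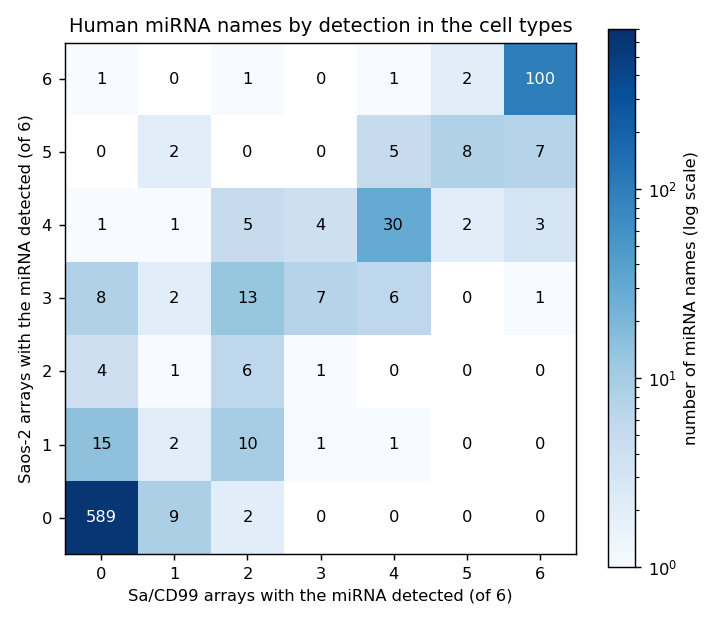
Number of human miRNA names by how many of the 6 Sa/CD99 arrays (horizontal axis) and how many of the 6 Saos-2 arrays (vertical axis) detected them, with colour on a log scale. Of 851 names, 589 lie at the origin and 100 at the opposite corner, and the upper left corner, all Saos-2 and no Sa/CD99 array, holds 1.

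Present or absent calls were largely shared. Besides the 100 miRNAs on every array, 53 were detected on equal numbers of Sa/CD99 and Saos-2 arrays, 66 on more Saos-2 arrays and 43 on more Sa/CD99 arrays. Saos-2 alone had 29 miRNAs that were absent from all Sa/CD99 arrays, 14 of them on 2 or more arrays. Sa/CD99 alone had 11, of which 2 were on 2 arrays and none on more. Across the 162 miRNAs detected on 1 to 11 arrays, the number of positive arrays was compared between cell types by an exact permutation test with labels exchanged within days, and 0 of 162 (0%) passed a Benjamini-Hochberg adjusted p of 0.05. Only miR-551b had an unadjusted p under 0.05, both by this test and by Fisher's exact test, which also gave 0 calls. Its permutation p, 0.00926 (two-sided, exact, n = 6 and 6), is the smallest that the 216 arrangements allow, and a single miRNA at that p cannot pass an adjustment over 162. That test exchanges arrays within days, although arrays of 1 clone or number deviate together. With whole clones and numbers exchanged as replicate blocks there are 6 arrangements, so no exact two-sided p can lie below 0.333 (n = 2 and 2), which is the p of miR-551b.

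Parental cells held miR-551b, a low-abundance miRNA encoded on chromosome 3, and the clones did not. The mature form lies at chr3:168551914-168551934 on the plus strand, inside the span of the pseudogene EGFEM1P. In Saos-2 its scanner total gene signal was 2.80 and 6.38 units on day 0 (numbers 1 and 2), 2.23 and 8.81 on day 7, and 3.04 and 12.7 on day 14. On the log2 scale of the value table these were 2.73 and 3.24, 0.49 and 0.78, and -0.33 and 1.36. All 6 Sa/CD99 arrays were at the undetected value. Number 2 was higher than number 1 on each day. Both table values were highest on day 0, whereas the scanner signal of number 2 rose over time. The lowest detected value of an array ranged from -3.09 to 2.39 in the table and from 1.17 to 1.61 units in the scanner files, so weak miRNAs are given below in scanner units.

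The probes themselves showed the same separation for miR-551b. The scanner's probe signals, which are given also where a miRNA is not called, summed over 3 probes to between -0.288 and 0.467 units on the 6 Sa/CD99 arrays and to between 3.05 and 13.4 on the 6 Saos-2 arrays. The groups did not overlap, and clones wt22 and wt36 both lay at about 0. This held on day 0 within slide 1 (0.294 and 0.467 against 4.56 and 6.60) and on day 14 within slide 2 (-0.288 and 0.142 against 4.47 and 13.4). Against the lowest detected value of the Sa/CD99 arrays, the Saos-2 mean was at least 2.87-fold higher in the value table and at least 2.95-fold higher in scaled scanner signal. Since miR-551b was picked for this pattern, these values are a description. The signal is weak, and 41.8% of all detections on the 12 arrays were dimmer than its brightest value. A stricter rule of at least 1 log2 unit above the lowest detected value of the array left no miRNA in the class. Under the labels of the scanner files miR-551b was on 4 Sa/CD99 and 2 Saos-2 arrays, so that its assignment to parental cells rests on the labels of the table.

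The relatives of miR-551b gave no signal to compare. The other arm of its hairpin, miR-551b*, and miR-551a, which matches it at 17 of 21 positions counted from the 5′ end, were detected on 0 of 12 arrays.

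**Figure D2:**
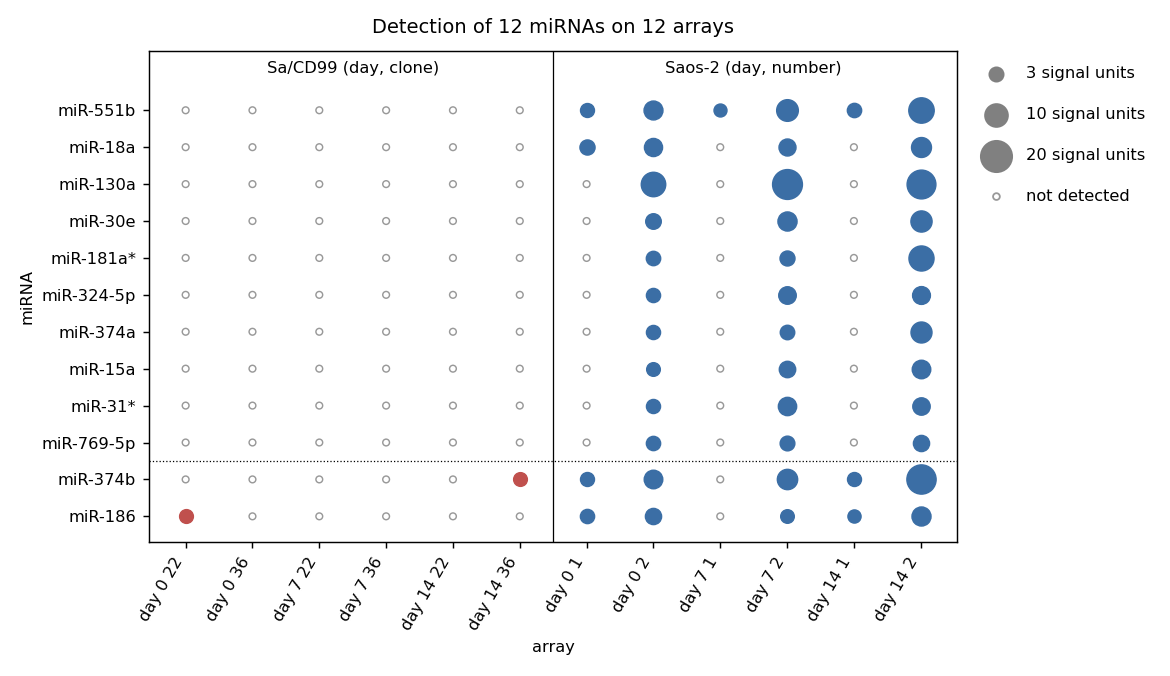
Detection of 12 miRNAs (rows) on the 12 arrays (columns, by day and by clone or number), with filled circles sized by scanner total gene signal and small open circles where a miRNA was not detected. miR-551b fills all 6 Saos-2 columns, 8 miRNAs fill only the 3 columns of Saos-2 number 2, and miR-374b and miR-186, below the dotted line, had 5 Saos-2 arrays and 1 Sa/CD99 array each.

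Found on every day of Saos-2 and on no Sa/CD99 array were 10 miRNAs, and 0 showed the opposite pattern. The 10 make up 6.17% of the 162 miRNAs on 1 to 11 arrays and are, beside miR-551b, miR-18a, miR-130a, miR-15a, miR-30e, miR-181a*, miR-324-5p, miR-374a, miR-31* and miR-769-5p. Most of these are not shared by the parental arrays: 8 of the 10 were detected on the 3 arrays of Saos-2 number 2 and on none of number 1. The exceptions were miR-551b, on all 6, and miR-18a, on both day 0 arrays but afterwards only on number 2. Among all 851 names, 698 were either on all 3 days or on no day of each of clone wt22, clone wt36, Saos-2 number 1 and Saos-2 number 2. Apart from the 589 on none and the 100 on all, these comprised the 8 on number 2 only and miR-551b, and no miRNA was confined in this way to a clone, to both clones or to Saos-2 number 1.

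The strongest of the 8 was miR-130a, of the family of miR-130 and miR-301a, at 11.6, 18.0 and 16.7 units on days 0, 7 and 14 of Saos-2 number 2. Its 2 probes summed to between 1.98 and 2.48 on Saos-2 number 1 and to between 2.30 and 3.33 on Sa/CD99, and these 9 arrays, on all of which it was undetected, overlapped between the cell types. Family members miR-130b and miR-301a were detected on all 12 arrays, miR-454 on 1 Saos-2 array and miR-301b on none.

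miR-15a, from the DLEU2 locus at chr13:50049167-50049188 on the minus strand, had 2.64, 4.46 and 6.06 units on the 3 days of number 2. Its neighbour in the same cluster, miR-16, also has a second locus, and it was present on all 12 arrays, as was miR-15b. miR-195, with the same seed, was on 6 Saos-2 and 2 Sa/CD99 arrays, and miR-424 on 4 and 1. Neither count reached an unadjusted p of 0.05 (exact permutation p = 0.0833 for miR-195, n = 6 and 6). Under the labels of the scanner files miR-195 was on 4 arrays of each cell type, and miR-424 on 4 Sa/CD99 arrays and 1 Saos-2 array.

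miR-18a belongs to the MIR17HG cluster, whose transcript drives proliferation in many tumours, at chr13:91350756-91350778 on the plus strand. It gave 3.57 and 5.74 units on day 0 of Saos-2 numbers 1 and 2, and 4.88 and 7.24 on days 7 and 14 of number 2. The other members looked up from this cluster, miR-17, miR-19a, miR-19b, miR-20a and miR-92a, were detected on all 12 arrays, so the presence of these 5 did not separate the cell types. miR-18b, which shares the seed of miR-18a, was on 2 Saos-2 arrays, both of number 2, and no Sa/CD99 array.

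miR-30e, encoded within the span of NFYC at chr1:40754371-40754392 on the plus strand, had 3.85, 6.56 and 8.35 units on number 2. miR-30a and miR-30c, with the same seed, and miR-30b were on all 12 arrays. miR-374a, from the FTX locus on chromosome X, had 2.93, 3.15 and 8.18 units on number 2, and its neighbour miR-374b was on 5 Saos-2 arrays and 1 Sa/CD99 array.

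The remaining 4 are arms whose partner arm was either common or absent. miR-181a* (3.09, 3.47 and 12.3 units on number 2), miR-31* (2.90, 5.89 and 5.18) and miR-324-5p (2.95, 5.27 and 5.50) had partner arms, miR-181a, miR-31 and miR-324-3p, on all 12 arrays. miR-769-5p gave 3.02, 3.30 and 4.29 units, and miR-769-3p was detected nowhere. In none of these hairpins did the second arm show a presence or absence difference between the cell types.

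**Figure D3:**
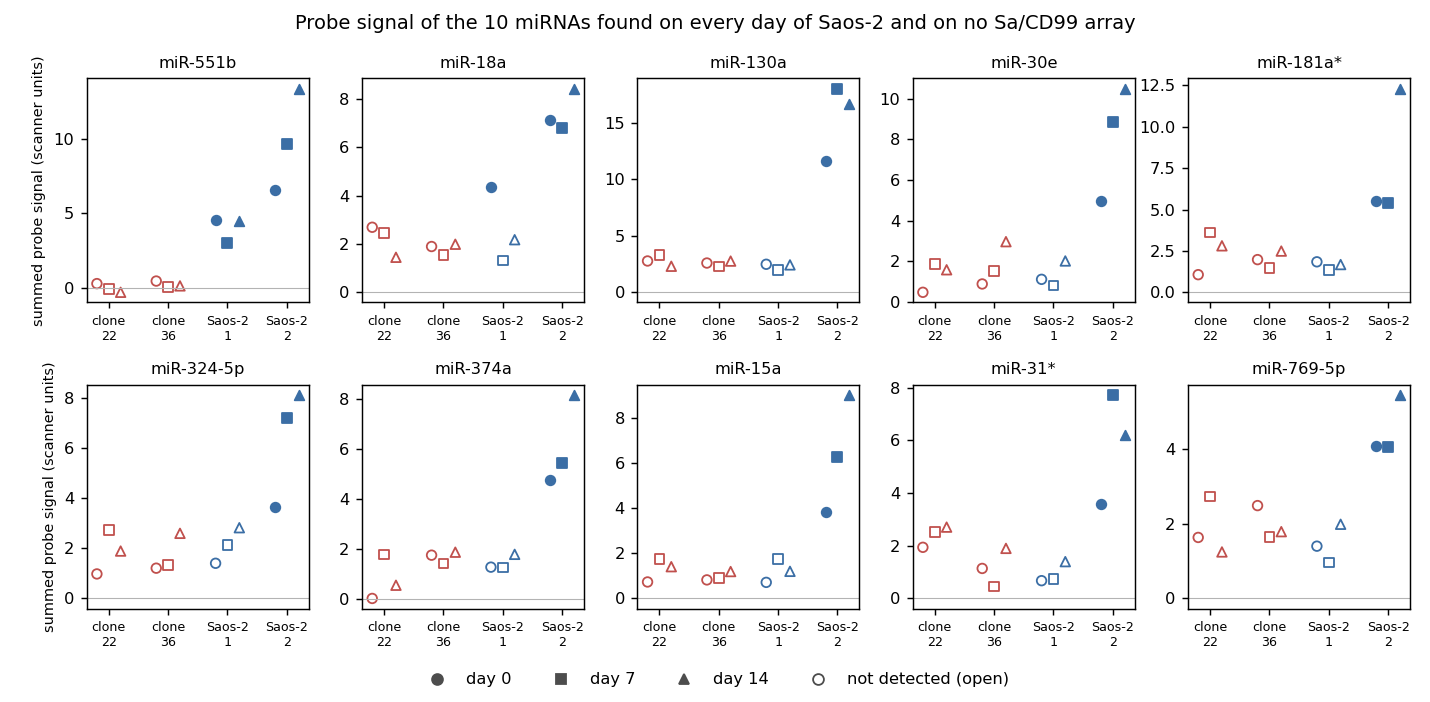
Summed probe signal (vertical axes, scanner units, scale set per panel) of the 10 miRNAs by clone or number (horizontal axes), with filled symbols where the miRNA was detected, open symbols where it was not, and shape by day. In all 10 panels the 3 arrays of Saos-2 number 2 lie above the other 9, and in the miR-551b panel alone the 6 Saos-2 arrays lie above the 6 Sa/CD99 arrays.

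Probe signals are those from which detection was called, so for the 10, picked by detection, they are a description. The lowest array of number 2 exceeded the highest of the other 9 arrays in 10 of 10. The gap was narrowest for miR-324-5p, 3.655 against 2.818 units, and widest for miR-130a, 11.6 against 3.33. In both, the lower value lay on an array without detection. The share of all miRNAs with this order was not counted. miR-16, on all 12 arrays, also had it, at 75.1, 116.6 and 136.1 units against at most 41.4, whereas let-7a did not. The 6 Saos-2 arrays all exceeded the 6 Sa/CD99 arrays in 1 of 10, miR-551b. The median of Saos-2 number 1 was above the Sa/CD99 median in 4 of 10. Number 2 also had the higher total scanner signal on each day, 11305 against 9472, 57325 against 25330 and 47196 against 40549 units, and the part of this in the calls was not tested. In bulk RNA, fewer cells that express a miRNA and less of it per cell cannot be told apart. With Saos-2 number 2 alone as the parental side, 10 miRNAs were present on all of its arrays and absent from all Sa/CD99 arrays. With number 1 alone there was 1, miR-551b.

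Relaxing the rule to at least 5 arrays against at most 1 added miR-374b and miR-186, both in parental cells by the labels of the table. By those of the scanner files miR-374b was on 3 arrays of each cell type, and miR-186 on 4 Sa/CD99 and 2 Saos-2 arrays. miR-374b gave 2.82 and 6.11 units on day 0 of Saos-2, was undetected and 7.60 on day 7, and gave 2.82 and 17.3 on day 14 (numbers 1 and 2), against 2.69 on the single positive Sa/CD99 array, wt36 on day 14. miR-186 gave 2.996 and 4.30, was undetected and 2.61, and gave 2.34 and 6.49, against 2.72 on the single positive Sa/CD99 array, wt22 on day 0. Probe sums of miR-374b on the Sa/CD99 arrays were 2.74 to 4.98 units and overlapped those of Saos-2 number 1, 4.26 to 5.17. Under the labels of the scanner files each of the 8 miRNAs of number 2 was on 2 Sa/CD99 arrays and 1 Saos-2 array, and miR-18a was on 3 and 1.

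Single days gave further all-or-none miRNAs that did not persist. On day 0, miR-34a was on both Sa/CD99 arrays and on neither Saos-2 array, and 5 miRNAs (miR-18a, miR-195, miR-374b, miR-378 and miR-551b) showed the reverse, while 112 were on all 4. On day 7 there was 1 in Sa/CD99 (miR-933) and there were 2 in Saos-2 (miR-551b and miR-596), with 147 on all 4. On day 14 there were 9 in Sa/CD99 (miR-1208, miR-1295, miR-23a*, miR-34c-5p, miR-513a-3p, miR-550, miR-584, miR-610 and miR-629*) and 4 in Saos-2 (miR-1825, miR-186, miR-423-3p and miR-551b), with 175 on all 4. No miRNA but miR-551b was on these lists for every day.

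Of 9 p53-linked names, 3 were detected, beside 262 of all 851 (30.8%). By the labels of the table each was on more Sa/CD99 than Saos-2 arrays, as were 43 of the 162 miRNAs on 1 to 11 arrays (26.5%). miR-34a, a target of p53 that restrains the cell cycle, was on all 6 Sa/CD99 arrays and on 4 Saos-2 arrays. Its scanner signal in the clones was 3.63 and 4.84 units on day 0, 13.4 and 10.5 on day 7, and 14.8 and 17.8 on day 14 (wt22 and wt36). In Saos-2 it was undetected on both day 0 arrays, then 3.37 and 5.21, and 5.19 and 17.1. The clones were higher on days 0 and 7, whereas on day 14 Saos-2 number 2 reached their level. miR-34c-5p was on 4 Sa/CD99 arrays and 1 Saos-2 array, and miR-34b* on 3 and 1. The other 6 names were on no array. The level difference of miR-34a, Sa/CD99 minus Saos-2, was 2.13 log2 units in the table (95% interval 0.63 to 3.63, over its detected arrays) and 1.31 in scanner signal. Under the labels of the scanner files these counts turned, to 4 Sa/CD99 and 6 Saos-2 arrays for miR-34a, 1 and 4 for miR-34c-5p and 1 and 3 for miR-34b*, and the level difference of miR-34a was -0.87 in the table and -1.18 in scanner signal. Saos-2 is known to lack functional p53.

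Where a miRNA was detected on at least 3 arrays of each cell type, its level was compared by limma on the log2 values with day as a covariate and undetected values left out. None of the 176 miRNAs tested passed an adjusted p of 0.05 (0%), the lowest adjusted p being 0.214. Unadjusted, 22 (12.5%) were lower in Sa/CD99 and 3 (1.70%) were higher at p under 0.05. The median difference over all 176 was 0.07 log2 units and the median standard error 0.31. With the scanner signal in place of the table, 4 of 174 (2.30%) passed, miR-342-3p, miR-26b and miR-301a lower and miR-34a higher in Sa/CD99 (limma, adjusted p = 0.0283 for each). All 4 took the opposite sign in scanner signal under the labels of the scanner files, at 0.92, 0.006, 1.004 and -1.18 log2 units in that order. None of the 4 passed once clone or number was entered as a random block (adjusted p = 0.164 to 0.233).

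miR-342-3p, encoded within the span of EVL, had the smallest p. Its scanner signal was 13.7 to 24.8 units in Sa/CD99 (median 18.1) and 25.0 to 51.3 in Saos-2 (median 42.6), and the groups did not overlap, by a narrow margin. How many of the 176 tested miRNAs did the same was not counted. Since miR-342-3p was picked by its p in these data, these values and those by day are a description. Of the 7 miRNAs of smallest p, 6 had the same sign on all 3 days. In the table the difference was -1.01 ± 0.23 log2 units (SE, limma adjusted p = 0.214, n = 6 and 6). The difference in means was -0.68 on day 0, -0.85 on day 7 and -1.52 on day 14, so its sign was the same within slide 1, within slide 2 and between the slides. It is the only miRNA that passed against Saos-2 number 1 alone, 1 of 112 (0.893%, limma adjusted p = 0.033), and it did not pass against number 2 alone (limma adjusted p = 0.0747).

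miR-26b, from the CTDSP1 locus, ranged from 2.72 to 8.21 units in Sa/CD99 (median 4.18) and from 4.54 to 23.9 in Saos-2 (median 8.89). These ranges overlapped, and the table difference was -1.65 ± 0.43 (SE, n = 6 and 6, limma adjusted p = 0.237), beside -0.86 in scanner signal. miR-301a, of the same family as miR-130a and from the SKA2 locus, ranged from 4.74 to 9.19 units (median 6.94) and from 7.20 to 22.5 (median 16.3). Its difference was -1.51 ± 0.44 (SE) in the table and -0.82 in scanner signal. In the table both differences were smallest on day 0, at -0.71 and -0.50, and largest on day 14, at -2.70 and -2.52. In scanner units miR-26b had 3.68 and 2.72 against 4.54 and 9.54 on day 0. On day 14 it had 4.16 and 8.21 against 8.24 and 23.9. For miR-301a these were 9.19 and 7.84 against 14.1 and 19.25, and 5.53 and 6.05 against 7.20 and 22.5. Whether the differences grew over days in scanner signal was not tested. In the table under the labels of the scanner files the differences over all days turned to 1.65 and 2.75. A test of whether the difference depended on the day nevertheless passed for 0 of 100 miRNAs on all arrays (0%, limma adjusted p), and 3 had an unadjusted p under 0.05. It passed for 1, miR-1305, with clone or number as a block, and for 5 without Saos-2 number 1 of day 7.

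Of the 25 miRNAs with an unadjusted p under 0.05, 20 could be fitted against Saos-2 number 1 alone. Since the 25 were picked by a fit that includes both numbers, the following values are a description, and the sign against either number is in part set by that choice. The difference was larger in size against number 2 in 19 of 20, miR-342-3p being the exception. Median differences over those that could be fitted were -0.49 against number 1 and -1.48 against number 2. Against number 2 alone 21 of 121 (17.4%) passed the adjusted p, 15 lower and 6 higher in Sa/CD99. Under the labels of the scanner files 70 miRNAs (52.6% of those tested) passed, 55 of them higher in Sa/CD99, and the difference of miR-342-3p turned to 1.63. Of the 25, 23 could be fitted under those labels and 22 took the opposite sign, miR-320a being the exception.

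**Figure D4:**
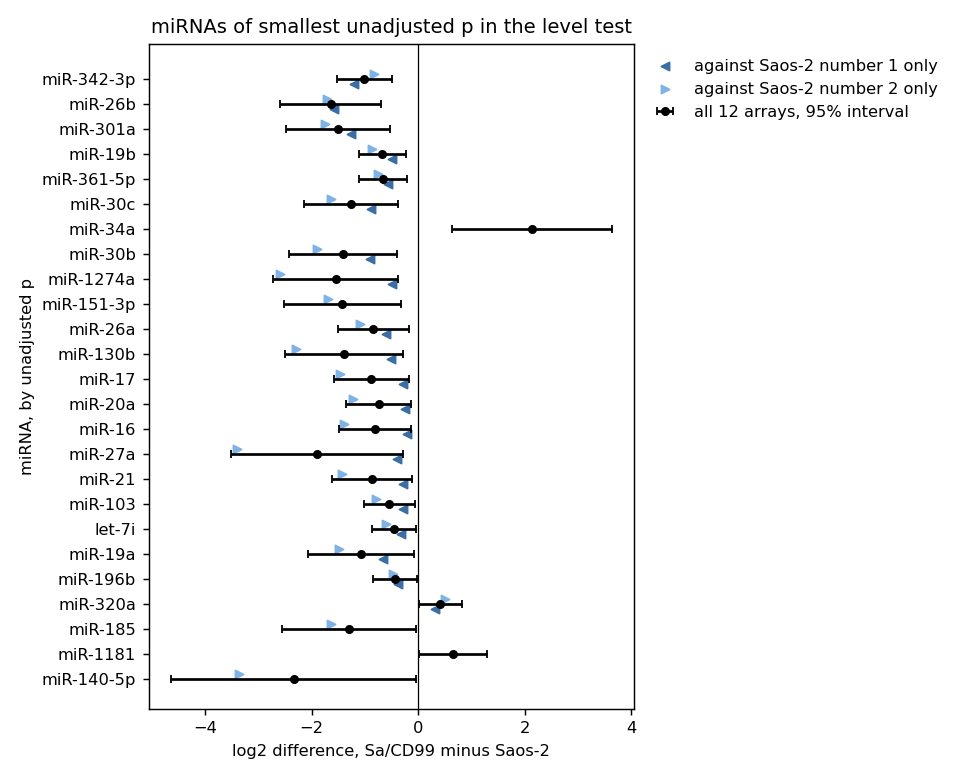
Log2 difference, Sa/CD99 minus Saos-2, of the 25 miRNAs with unadjusted p under 0.05, ordered by p from the top (circles, all 12 arrays, with 95% intervals) and the same difference against each Saos-2 number alone (triangles, where it could be fitted). 22 circles lie left of 0, and the triangles for number 2 lie farther from 0 than those for number 1 in 19 of 20.

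Lists of miRNAs with known roles were read by their counts. Of 22 miRNAs that the study named for these samples, which is no independent choice, all were detected somewhere and none in only 1 cell type, with 97 of 132 possible detections in Sa/CD99 and 101 in Saos-2. The study called these miRNAs on each day separately, whereas the level test here pools the days, leaves undetected values out and adjusts p. Differences of opposite sign on different days can cancel when pooled, so the counts here do not repeat the study's calls. Of the 18 tested, 0 passed, as over all miRNAs (0%). At an unadjusted p under 0.05, 2 were lower and 2 higher, beside 12.5% and 1.70% of all 176, and their median difference was 0.45 log2 units, beside 0.07 over all 176. Of 11 miRNAs known to target RUNX2, the master regulator of osteoblasts, miR-23a and miR-30c were on all 12 arrays, miR-34c-5p on 5 and the other 8 on none. Of all 851 names, 589 were on none. Neither of the 2 tested members passed the adjusted threshold, nor did any of the 176. At an unadjusted p under 0.05 miR-30c was lower, 1 of the 2, beside 12.5% of all 176. All 9 let-7 family names were on all 12 arrays, with a median difference of -0.09 and 0 calls.

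Abundant miRNAs shared by both cell types were examined as the 20 of highest mean table value among those on all 12 arrays. They include 6 let-7 members (let-7a, b, d, e, f and g), miR-15b, miR-21, miR-24, miR-23b, miR-103, miR-30d and miR-214. Also among them are miR-923, miR-720 and miR-1308, names since withdrawn because the RNAs derive from ribosomal or transfer RNA. No difference passed the adjusted p, but absence of a call does not show that levels were alike, so each 95% interval was set against a stated fold. The interval of 1 of the 20, let-7g, lay within 1.4-fold either way, the fold limit used in the study's methods. It did not stay within that limit with slide as a covariate, with either clone alone, on days 7 and 14 only, against Saos-2 number 2 only (upper limit 0.54 log2 units), under the labels of the scanner files, or in scanner signal with clone or number as a block (upper limit 0.50). Within 2-fold lay 15 of 20, against 75 of all 176 tested (42.6%). The count within 2-fold was 1 under the labels of the scanner files, 8 against Saos-2 number 2 only, 20 against number 1 only, 7 and 10 with clone 22 or clone 36 alone, 10 with slide as a covariate and 13 to 18 with 1 array left out. The 15 include miR-923, which has no scanner value and held the highest value of its column, the ceiling of the normalised scale, on 8 of 12 arrays. The intervals of the other 5, miR-21, miR-720, miR-1246, miR-1225-5p and miR-103, reached past 2-fold.

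let-7g, of the family that restrains growth-promoting genes, ranged from 89.9 to 190.8 units in Sa/CD99 (median 139.7) and from 109.6 to 252.5 in Saos-2 (median 128.9). The ranges overlapped over most of their extent, and the table difference was -0.03, with a 95% interval of -0.41 to 0.35. let-7a had medians of 904.5 and 905 units and a difference of -0.09 (-0.62 to 0.43). miR-15b, the relative of miR-15a, had medians of 1207 and 1171 units and a difference of -0.26 (-0.75 to 0.24). Among the most variable of the 20 was miR-1308, from 20.6 to 2919 units in Sa/CD99 and from 26.7 to 1783 in Saos-2, with a difference of 0.05 (-0.57 to 0.68) once day was held.

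miR-21, an abundant miRNA raised in many tumours, had the largest difference among the 20 in the value table, though not in scanner signal. It ranged from 244.3 to 857.2 units in Sa/CD99 (median 589.3) and from 323.5 to 2102 in Saos-2 (median 605.3). The 2 highest values, 2102 and 1931, were those of Saos-2 number 2 on days 7 and 14, and the highest of the other arrays was 857.2. The table difference was -0.86 (-1.62 to -0.11, limma adjusted p = 0.285). It was -0.46 in scanner signal, -0.29 in the table against Saos-2 number 1 only and 0.24 under the labels of the scanner files.

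Below the first 20, the intervals of 6 more miRNAs on all 12 arrays lay within 1.4-fold, giving 7 of 100. They were miR-93, miR-324-3p, miR-29a, miR-221, miR-193b and miR-199a-3p, with differences between -0.06 and 0.09 log2 units. miR-93 had the smallest difference of these, with medians of 109 and 117.4 units in Sa/CD99 and Saos-2. miR-29a, which promotes osteoblast differentiation, had medians of 59.1 and 60.8. miR-324-3p shares its hairpin with miR-324-5p, which was seen only in Saos-2 number 2, and had medians of 96.6 and 97.1 units in the cell types. Of the 100, 58 lay within 2-fold, and of the 76 tested miRNAs missing from some arrays, 17 did.

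**Figure D5:**
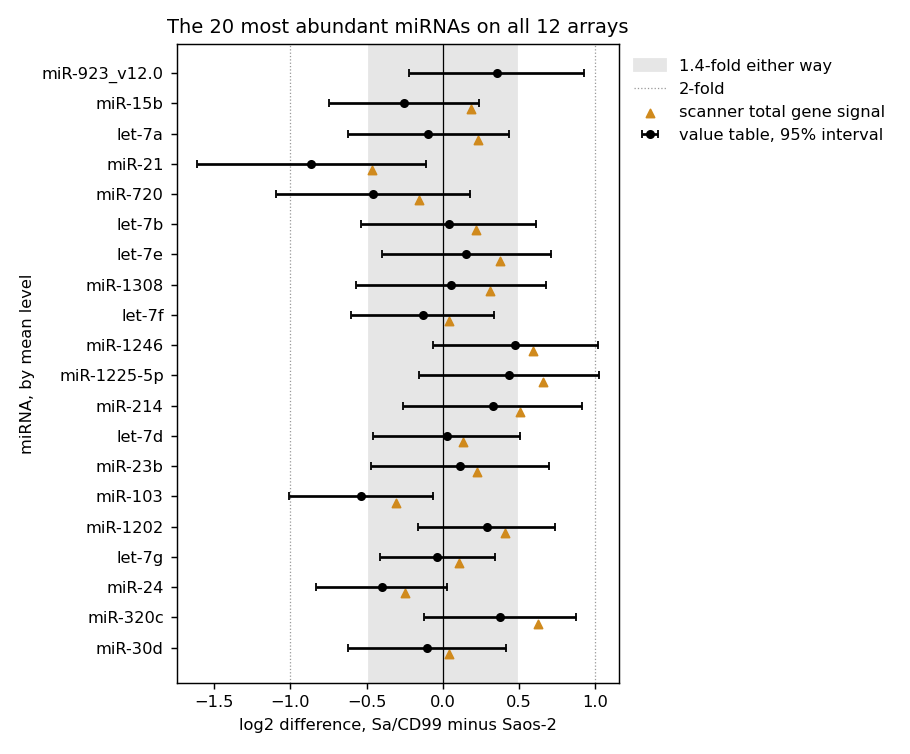
Log2 difference, Sa/CD99 minus Saos-2, of the 20 miRNAs of highest mean table value, ordered by that mean (circles, value table, with 95% intervals; triangles, scanner signal), with 1.4-fold shaded and 2-fold dotted. The interval of let-7g is the only one inside the shading, and those of miR-21 and miR-103 lie left of 0.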

How the data were processed

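Total RNA of 12 samples was labelled with Cy3 and hybridised to 1-colour Agilent human miRNA arrays. The authors deposited scanner intensity values (Feature Extraction total gene signal, probe signal and a detection flag per miRNA) and a table of quantile-normalised log2 values, for which the submitters' processing notes name RMA. Undetected miRNAs are tied at the lowest value of each column of the table. Columns were matched to scanner files by their detected names (847 shared, and 4 without a scanner row). The members and lists were chosen with earlier results of these data known.

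Detection was compared by exact permutation within days (scipy 1.17.1). Levels were fitted in limma 3.58.1 (R 4.3.3) with cell type and day, undetected values missing and at least 3 detected arrays per cell type. Named were all-or-none miRNAs, any calls of the level test, the 20 abundant ones and list members; others, such as those of smallest unadjusted p or of single days, were chosen after their values were seen. Scanner signal was scaled to the 75th percentile of the miRNAs on all arrays. With scaled scanner signal in place of the table, the median difference was 0.16 log2 units, beside 0.07. Both procedures were tested on drawn data with known answers. The level fit called 63.3% of drawn 2-fold changes, 82.1% of drawn 4-fold changes and 1.69% of unchanged rows. Its arrays were drawn as independent, without the correlation within a clone or number. Deviations of same-numbered arrays from their group mean correlated across days by r = 0.446 to 0.524 in Sa/CD99, whose numbers are clones. In Saos-2 the correlation was 0.413 to 0.631 (100 miRNAs). Arrays of 1 number thus deviated together, which does not show that a Saos-2 number is 1 culture. The block correlation in limma was 0.12 with the table and 0.31 with scanner signal. Nothing in the labels says that arrays of 1 line are separate cultures, and p-values measure only the spread between these arrays. The number of arrays, 6 per cell type, limits the precision.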

Additional observations from a re-analysis of the deposited data

Results flagged for a closer look

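The scanner files also carry 88 names of viral miRNAs, which enter no comparison of the cell types. Of these 13 were called detected on at least 1 array, a signal in data outside the main measurement. The count per array was 1 to 3 on day 0, 5 to 9 on day 7 and 8 to 12 on day 14, and on day 14 it was 11 and 10 in Sa/CD99 and 12 and 8 in Saos-2. No array without RNA is among these samples.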

How the results depend on the processing

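With 1 array left out at a time, the all-or-none count stayed at 1 and the detection and level tests gave 0 calls, while the difference in miRNAs detected per array ranged from -18.9 to -0.467, the abundant miRNAs within 1.4-fold from 0 to 2 and the day interaction calls from 0 to 5. The 5 (miR-1305, miR-149, miR-484, miR-532-3p and miR-744) came without Saos-2 day 7 replicate 1. All-or-none miRNAs numbered 0 under the labels of the scanner files and under stricter detection, 10 with at least 1 array of each day against 0 and with Saos-2 number 2 only, and 3 with at least 5 arrays against at most 1. Detection gave 1 call at an unadjusted p, and 0 with whole clones and numbers exchanged as replicate blocks, where the smallest exact p is 0.333. Against Saos-2 number 1 only, the difference in miRNAs detected turned to 7.33. These comparisons of the Saos-2 numbers and the exchange of whole lines were chosen after seeing the data.

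The level test gave 70 calls under the labels of the scanner files, 32 with those labels and scanner signal, 4 with scanner signal, 6 at the limits of the methods, 1 with cyclic loess, 1 with undetected values kept and no filter (miR-551b), 1 against Saos-2 number 1 only and 21 against number 2 only. The replicate block, which pairs arrays of 1 clone or number, gave 0 calls with the table and 0 with scanner signal, and 1 in the day interaction (miR-1305). Slide as a covariate gave 0. Under the labels of the scanner files the differences reversed for miR-342-3p (1.63, and 0.92 with scanner signal), miR-26b (1.65 and 0.006), miR-301a (2.75 and 1.004), miR-19b (0.71 and 0.23), miR-361-5p (0.91 and 0.25), miR-30c (2.54 and 0.61) and miR-34a (-0.87 and -1.18).

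Abundant miRNAs within 1.4-fold numbered 0 under the labels of the scanner files, with only clone 22, only clone 36, only days 7 and 14, slide as a covariate, Saos-2 number 2 only, and scanner signal with the block. They numbered 2 with scanner signal and 4 against Saos-2 number 1 only. With 50 miRNAs in place of 20 there were 7, and within 1.5-fold and 2-fold there were 2 and 15. The causes were not tested. Signal over background limits what can be called detected. The 10 miRNAs of every Saos-2 day and no Sa/CD99 array had a median detected value of 5.03 units. Over all detections it was 17.9.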
